A study of Drosophila melanogaster with 24 samples.

Results

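A CR number is the systematic name FlyBase gives to a gene with no evident protein product. The 122 Drosophila melanogaster loci described here, most of them annotated as noncoding RNA genes, carry only such a number in the deposited tables. They were selected on their levels in these data: each is a locus whose whole name is a single CR number and whose mean over the 8 groups was at least 1 FPKM (fragments per kilobase of transcript, scaled to the mapped fragments of the library, so a level per length and per depth). Of 14542 loci in the deposited tables, 601 carried such a name. Of these, 182 were listed at 0 FPKM in every group and 479 had a mean below 1 FPKM, so that 20.3% were members, against 53.3% of all loci that reached the same mean. The rule left out 15 loci that join a CR name to another name and 73 with a prefix before the number. Because the mean over all groups chose the members, their levels are a description. Differences between groups did not enter the rule directly, but near its limit a locus can pass through its high groups alone. Of the called members this held for CR43808, CR42874 and CR43765 with Sin3A dsRNA and CR43651 with paraquat, whose means were below 1 FPKM on 1 side of the contrast (0.840, 0.741, 0.924 and 0.729 FPKM), so their calls are given as values and support nothing.

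Long noncoding RNAs are transcribed and often spliced and polyadenylated like mRNAs but carry no long open reading frame, and many lie between genes or run across a coding gene on the opposite strand. SIN3 is the scaffold of a histone deacetylase complex, and LID (dKDM5) is a histone demethylase that acts on methylated lysine of histone H3 tails near start sites. Paraquat is a herbicide that makes superoxide inside cells. Which noncoding loci respond to loss of either chromatin factor or to oxidative stress is the question these groups allow to be asked of the CR loci.

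RNA was sequenced from S2 cells, a cultured line of embryonic, hemocyte-like character, treated with dsRNA against GFP (the control, GFP RNAi), Sin3A (Sin3A knockdown), lid (lid knockdown) or both genes (dual knockdown) for 4 days. Each was grown without stress or with 8.3 mM paraquat for 24 h, which gave 8 groups of 3 replicates and 24 libraries. All groups, the control included, therefore received dsRNA, and the cells are 1 line. The deposited level of a locus is 1 value per group, combined from its replicates by the authors, so that no spread between replicates was used. The 8 values were instead fitted by limma on log2(FPKM + 0.1) with a main effect each for paraquat and the dsRNA against Sin3A and lid, over 7748 loci with a mean of at least 1 FPKM. Each effect is the mean of 4 differences between disjoint pairs of groups. Its standard error (SE) reflects how far the 8 values of a locus depart from additive effects, adjusted by a spread shared over loci. The SE is therefore the same for all factors of a locus. It is neither the spread of the 4 differences of that factor alone nor the spread between cultures. A locus was called when its p-value, adjusted over all 7748 loci, was under 0.05 and its change was over 1.4-fold.

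The transcript of lid was 37.2, 39.1, 35.8 and 43.0 FPKM in the 4 groups without lid dsRNA and 14.9, 16.9, 15.4 and 17.0 FPKM in those with it. That of Sin3A was 67.9, 62.5, 62.0 and 66.5 FPKM without Sin3A dsRNA and 61.7, 58.0, 59.7 and 58.8 FPKM with it. Its effect of -0.12 (SE 0.04, limma adjusted p = 0.0590) did not pass the test, although the 4 groups with the dsRNA were all below the 4 without, by a small margin. The groups are named by their labels throughout. Of 10 hemocyte marker names, 9 were found and 8 had a mean of at least 1 FPKM, Hml being the one below, at 0.353 FPKM. The hemocyte markers together summed to 666 to 898 FPKM in the groups with Sin3A dsRNA and 885 to 1457 FPKM in those without. Their sum was 666 to 1015 FPKM with paraquat and 873 to 1457 FPKM without. Of the 8, 4 were called lower with Sin3A dsRNA, 1 with lid dsRNA and 5 with paraquat, and 0 higher with any. Over all tested loci 9.43%, 0.490% and 3.33% were called lower. Markers of germline, muscle, neuron and fat body had 1, 1, 1 and 0 loci at a mean of 1 FPKM or more. The muscle marker Mlc2 and the neuron marker elav were called higher with Sin3A dsRNA, at 0.50 (SE 0.15) and 0.50 (SE 0.07). The summed neuron markers were 4.91 to 5.10 FPKM with it and 3.28 to 3.73 FPKM without, and the summed muscle markers 2.21 to 2.88 and 1.72 to 2.88 FPKM. The part of these markers in the results was not tested, and in bulk RNA fewer cells of a type and less RNA per cell cannot be told apart.

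Most expressed CR loci were at low levels. Their median mean level was 6.70 FPKM, against 26.5 FPKM for all tested loci. Between 1 and 10 FPKM lay 70 members, between 10 and 100 FPKM 44, and at or above 100 FPKM 8. No member was listed at 0 FPKM in any group, and 107 were at 1 FPKM or more in all 8 groups. Together they held between 0.460% and 0.637% of the summed FPKM of a group, and the 5 highest held 57.6% of the members' summed mean. The ratio of the highest to the lowest group had a median of 1.89 over the members and 1.48 over all tested loci. Just inside the threshold were CR43651, CR44078 and CR44150, at means of 1.05, 1.05 and 1.06 FPKM, and just outside it CR43972, CR43471 and CR43844, at 0.944, 0.941 and 0.901 FPKM.

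A later annotation of the genome, dm6, was matched to the members by name, not by coordinates, because the deposited loci are on dm3. All 122 members had an entry there, and neighbouring genes are named as in it. It lists 61 as long noncoding RNAs and 55 as antisense RNAs, 2 as ribosomal RNA pseudogenes (CR40677 and CR41602), and 1 each as a hairpin RNA (CR32207), a small nuclear RNA (CR43708, now snRNA:LU) and a pseudogene (CR43727). CR43051 is now a protein-coding gene, CG43051, and so goes against the label noncoding. CR43790 and CR43791 are now parts of 1 gene. Some members have other names there, among them pri-bantam (CR43334), pri-mir-277_mir-34 (CR43459), pri-mir-279_mir-996 (CR31044) and pri-mir-14 (CR43651). The exonic length had a median of 941 bases and ran from 30 to 15466, with 9 members under 300 bases, for which an FPKM depends strongly on the length correction. In that annotation 55 members shared no exonic base with another gene and 40 shared over 50%, and 79 overlapped a coding gene on the opposite strand. Of these 79, 60 shared exonic bases with another gene and 19 shared none. The study describes no strand-marking step, so in shared exonic bases the reads of a member and of the gene across from it cannot be told apart. Of the members, 27 lie on arm 2L, 20 on 2R, 25 on 3L, 29 on 3R, 14 on X, 4 on chromosome 4 and 3 on scaffolds outside the arms.

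The highest member was CR34335, a long noncoding RNA of the X chromosome, at 944, 831, 735 and 604 FPKM without paraquat and 837, 977, 685 and 746 FPKM with it (always in the order GFP RNAi, lid, Sin3A and dual knockdown). CR40469, at the distal tip of X from 18880 to 19093 on dm3, came next at 745, 676, 605 and 509.8 FPKM without paraquat and 677, 840.3, 544 and 655 FPKM with it. Both were lowest in the unstressed dual knockdown and highest in the stressed lid knockdown, and the ratio of CR34335 to CR40469 stayed between 1.14 and 1.27 in all 8 groups; whether they share reads was not tested. The ribosomal RNA pseudogenes ranked 3 and 5. CR41602 was at 553, 442, 346 and 297 FPKM without paraquat and 954, 437, 321 and 352 FPKM with it, and CR40677 at 318, 271, 210.2 and 167 FPKM without paraquat and 367, 205, 171 and 177 FPKM with it. Both are on the XHet scaffold and resemble repeated ribosomal genes, and reads of other copies cannot be told apart from theirs, which makes their levels uncertain.

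CR43264, within the region of CG15765 on X, ranked 4, at 238, 293, 377 and 321 FPKM without paraquat and 234, 311, 277 and 287 FPKM with it. Its lowest values were in GFP RNAi with and without paraquat, but none of its 3 effects passed the test, with 0.23, SE 0.12 for Sin3A dsRNA. CR43883 ranked 6 and is described with the loci lowered by Sin3A dsRNA. CR31144 lies antisense to RpL3, which encodes a protein of the large ribosomal subunit. Of its exonic bases 87.3% are shared with overlapping genes, 412 of the 559 with RpL3. CR31144 was at 127, 145, 127 and 129 FPKM without paraquat and 143, 133, 139.9 and 141 FPKM with it. CR44114, antisense to sau (a Golgi lipid-binding protein), was at 122, 127, 125 and 131 FPKM without paraquat and 113, 114, 118 and 111 FPKM with it. CR44060, across from drongo (an Arf GTPase-activating protein), was at 80.9, 77.4, 78.6 and 79.4 FPKM without paraquat and 74.2, 80.8, 76.9 and 89.0 FPKM with it. None of these 3 was called for any factor. CR44115, antisense to Sec24CD (a coat protein of transport vesicles leaving the endoplasmic reticulum), ranked 10, at 39.2, 52.0, 45.6 and 64.1 FPKM without paraquat and 72.3, 56.4, 76.7 and 70.4 FPKM with it.

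Sin3A dsRNA lowered more CR loci than it raised. Of the 122 members, 26 were lower and 6 higher by the call rule. These counts include CR43765 and CR42874 among the lower and CR43808 among the higher, whose calls support nothing, as stated above. Over all tested loci 9.43% were called lower and 8.35% higher, against 21.3% and 4.92% of the members. The median effect was -0.12 over the members and -0.01 over all tested loci on the log2 scale. At an unadjusted p under 0.05 the shares were nearer each other, 54.9% of members and 58.4% of all tested loci. The SE of the members was larger, with a median of 0.10 against 0.06. With at least 1 FPKM required in each group, 23 members were called lower and 5 higher.

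Level moved with the calls and was compared in 3 bins. Of the 70 members between 1 and 10 FPKM, 21.4% were called lower, beside 22.1% of all tested loci at that level. Between 10 and 100 FPKM the shares were 18.2% of 44 members and 6.07% of all loci, and at 100 FPKM or more 3 of 8 members and 3.30% of all loci. In the lowest bin the share of members called lower was thus near that of all loci, and the gap lay in the higher bins. The 3 at 100 FPKM or more are CR43883 and the ribosomal RNA pseudogenes CR40677 and CR41602, whose levels are uncertain. The plot of effect against level shows both sets.

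**Figure D1:**
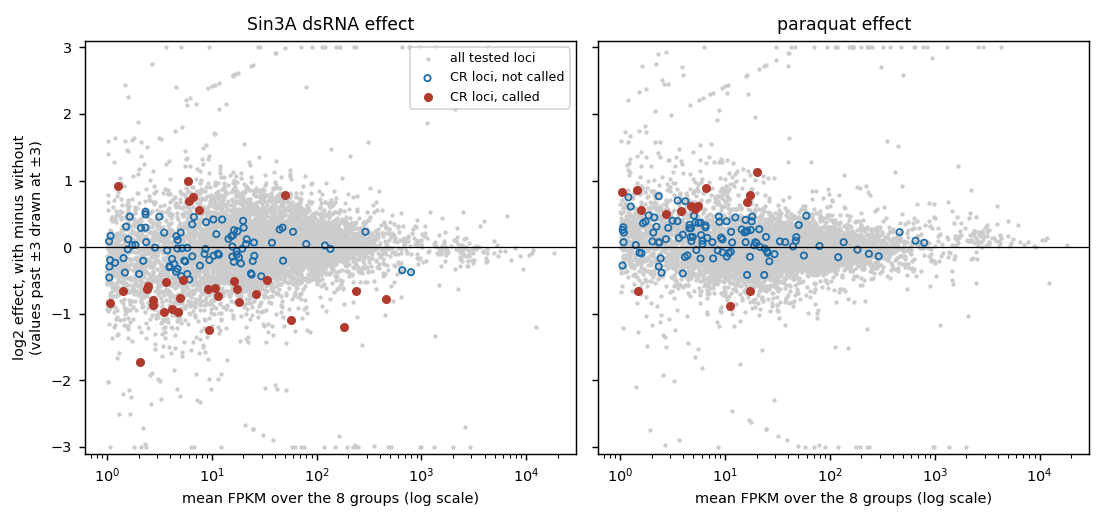
Effect on the log2(FPKM + 0.1) scale against mean FPKM (log axis) for Sin3A dsRNA (left) and paraquat (right), with all 7748 tested loci in grey, CR loci not called as open circles and called CR loci as filled circles. With Sin3A dsRNA 26 of the 32 filled circles lie below 0, and with paraquat 12 of 15 lie above it.

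The largest fall was that of CR43765, a long noncoding RNA near the centromere end of 2L whose nearest coding gene is Nubpl (an iron-sulfur assembly factor of mitochondria). It was at 3.78, 2.39, 0.572 and 1.09 FPKM without paraquat and 3.37, 3.34, 1.27 and 0.770 FPKM with it. All 4 groups with Sin3A dsRNA were below all 4 without, and the level was 3.32-fold lower, a log2 effect of -1.73 (SE 0.26, limma adjusted p = 0.00216). Its mean with Sin3A dsRNA was 0.924 FPKM, so it is a member through its high groups, and these values are a description that supports nothing. CR43256, across from gus (a substrate receptor of ubiquitin ligases) at the centromere end of 2R, was at 15.2, 10.6, 4.48 and 6.17 FPKM without paraquat and 12.9, 14.4, 4.57 and 7.30 FPKM with it. The groups did not overlap, and its effect was -1.24 (SE 0.18, limma adjusted p = 0.00179). On the other strand gus changed by -0.26 (SE 0.04, adjusted p = 0.00225), short of 1.4-fold.

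CR43883 is the most abundant long noncoding RNA among those lowered. It lies on 3L from 820759 to 821514 (dm3), next to Sf3b3, a component of the splicing machinery, with which it shares no exonic base. It was at 282, 239.6, 110.1 and 113 FPKM without paraquat and 269, 232, 109 and 112 FPKM with it. The 4 values with Sin3A dsRNA lay within 109 and 113 FPKM and the 4 without within 232 and 282 FPKM, whether or not lid dsRNA or paraquat was present. The level was 2.30-fold lower, with an effect of -1.20 (SE 0.06, limma adjusted p = 1.14e-04), while Sf3b3 changed by 0.21 (SE 0.06, adjusted p = 0.0238) in the other direction.

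CR43957 lies in the region of ci, the transcription factor of the Hedgehog pathway, on chromosome 4, on the opposite strand. It was at 88.0, 77.9, 33.8 and 39.0 FPKM without paraquat and 76.6, 66.2, 32.2 and 38.9 FPKM with it. Again no group with Sin3A dsRNA reached any group without, and the effect was -1.10 (SE 0.10, limma adjusted p = 3.02e-04). The ci locus, at a mean of 4.28 FPKM and so far below its antisense RNA, changed by -0.45 (SE 0.10, adjusted p = 0.00849), which did not reach 1.4-fold. CR43242, beside Spf45 (a splicing factor) on 2L, was at 22.3, 18.3, 11.95 and 10.1 FPKM without paraquat and 28.7, 22.7, 15.7 and 14.3 FPKM with it and had an effect of -0.82 (SE 0.05, limma adjusted p = 1.27e-04).

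CR43995 on 3L is the least even of these. It was at 3.58, 5.26, 1.72 and 1.10 FPKM without paraquat and 5.81, 3.67, 3.57 and 3.56 FPKM with it, and between the stressed lid and dual knockdowns it differed hardly at all. Its effect of -0.98 (SE 0.32, limma adjusted p = 0.0393) was called in only 2 of the 8 fits that left out 1 group. CR43989, across from IRSp53 (an actin regulator), had an effect of -0.93 (SE 0.12, limma adjusted p = 0.00103), and CR43148, beside Df31 (a chromatin decondensation factor), one of -0.87 (SE 0.11, limma adjusted p = 0.00115). In each the 4 groups with Sin3A dsRNA lay below the 4 without. CR42874 had an effect of -0.85 (SE 0.20, limma adjusted p = 0.0128) at a mean of 1.08 FPKM. With Sin3A dsRNA CR42874 averaged 0.741 FPKM, so it is a member through its high groups and its call supports nothing. CR44101, now named dntRL, had one of -0.79 (SE 0.10, limma adjusted p = 8.75e-04), and the pseudogene CR41602 one of -0.78 (SE 0.19, limma adjusted p = 0.0152). For CR41602 the fall from stressed GFP RNAi to the stressed Sin3A knockdown, -1.57 on the log2 scale, was the largest of its 4 pairs, and the remaining pairs ran from -0.68 to -0.31.

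**Figure D2:**
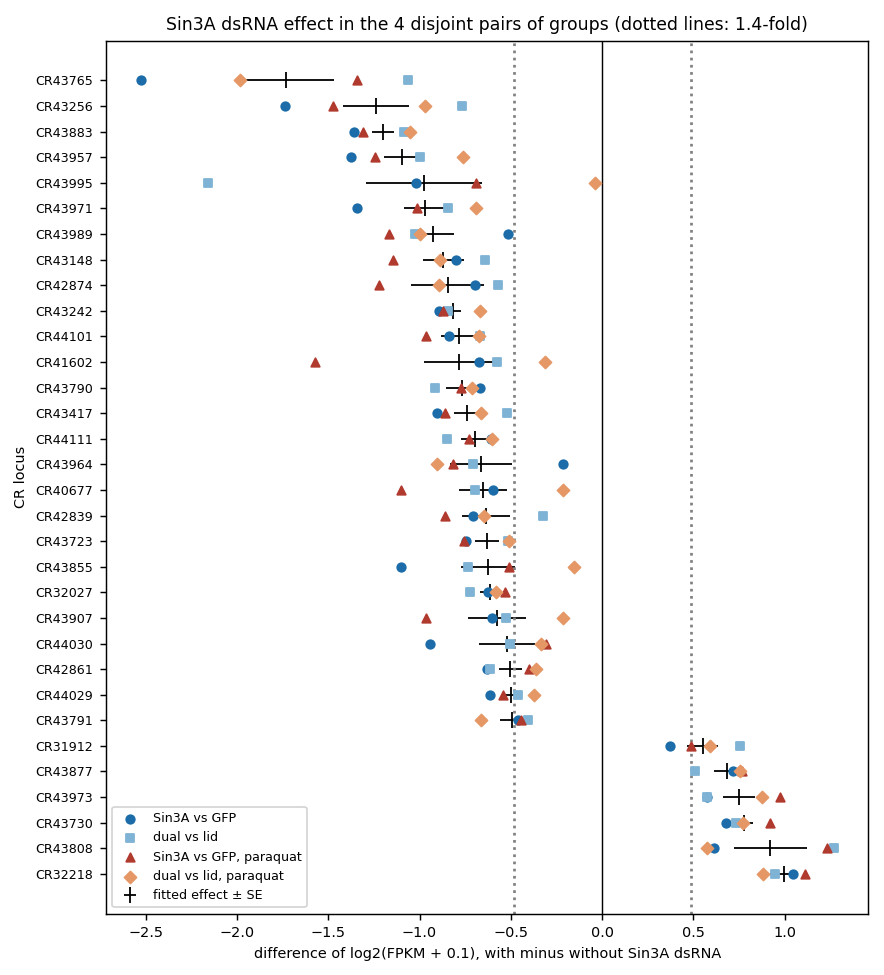
Difference of log2(FPKM + 0.1) with minus without Sin3A dsRNA for each of the 32 called CR loci in the 4 disjoint pairs of groups (symbols), with the fitted effect and its SE (black); dotted lines mark 1.4-fold. All 4 pairs have the sign of the effect in each locus, from CR43765 at -1.73 to CR32218 at 0.99, and CR43995 has the pair nearest 0, at -0.04.

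The other 14 members called lower had effects between -0.77 and -0.49. They include CR42839 beside srp, the GATA factor of blood cell development, which was at 3.65, 2.48, 2.19 and 1.96 FPKM without paraquat and 3.05, 2.77, 1.63 and 1.73 FPKM with it. Its effect was -0.64 (SE 0.13, limma adjusted p = 0.00769), and srp, a hemocyte marker, changed by -0.28 (SE 0.04, adjusted p = 0.00107) without reaching 1.4-fold. CR43790 and CR43791, adjacent on 2R and now 1 gene, were called lower separately, with effects of -0.77, SE 0.09 and -0.49, SE 0.07. These members and those named by position were picked after their values were seen.

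The 6 members raised with Sin3A dsRNA were CR32218, CR43808, CR43730, CR43973, CR43877 and CR31912. CR32218 lies on 3L in the locus range of Mi-2, a chromatin-remodelling ATPase, with no shared exonic base, and was at 3.84, 3.50, 8.01 and 6.85 FPKM without paraquat and 3.96, 4.40, 8.65 and 8.17 FPKM with it. The groups did not overlap and its level was 1.99-fold higher, an effect of 0.99 (SE 0.07, limma adjusted p = 1.89e-04); Mi-2 itself was at -0.06 (SE 0.04, adjusted p = 0.218). CR43730, antisense to JhI-26 (a gene inducible by juvenile hormone), was at 31.2, 35.9, 50.0 and 59.9 FPKM without paraquat and 35.1, 46.0, 66.6 and 78.6 FPKM with it. Its effect was 0.78 (SE 0.05, limma adjusted p = 1.36e-04), and that of JhI-26 was 0.84 (SE 0.08, adjusted p = 3.16e-04), also called. CR43808 rose by 0.92 (SE 0.20, limma adjusted p = 0.00855) at a mean of 1.26 FPKM, and the nearest coding gene, CG9021, by 0.77 (SE 0.21, adjusted p = 0.0200). As CR43808 averaged 0.840 FPKM without Sin3A dsRNA, it is a member through its high groups and its call supports nothing. CR43877, antisense to Arv1 (a lipid transport protein of the endoplasmic reticulum), had 0.69 (SE 0.07, limma adjusted p = 5.62e-04), and Arv1 had 0.64 (SE 0.05, adjusted p = 2.16e-04). CR31912, antisense to CG9171, had 0.55 (SE 0.08, limma adjusted p = 0.00216).

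A pair of neighbours moved in opposite directions. CR43971 and CR43973 share 1 locus range on 3L, from 15091235 to 15106103 on dm3, in the region of Ctps (CTP synthase). CR43971 was at 7.10, 5.78, 2.74 and 3.18 FPKM without paraquat and 6.76, 5.83, 3.29 and 3.57 FPKM with it, with an effect of Sin3A dsRNA of -0.97 (SE 0.11, limma adjusted p = 6.97e-04). CR43973 was at 3.89, 3.35, 5.83 and 5.05 FPKM without paraquat and 6.07, 5.90, 12.04 and 10.9 FPKM with it, with an effect of 0.75 (SE 0.09, limma adjusted p = 7.99e-04). The first was lower in each group with Sin3A dsRNA than in any without. The second was higher in each of its 4 pairs, and in the stressed groups reached 12.04 and 10.9 FPKM. Ctps changed by -0.25 (SE 0.05, adjusted p = 0.00443). Of the other members that share a locus range with another member, CR43889 lies with CR32218, and was called for no factor.

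The members lowered by Sin3A dsRNA were unevenly placed along the chromosomes. Of 23 members on chromosome 4, on scaffolds outside the arms or within 2 Mb of the centromere end of an arm, 12 were called lower and 0 higher. Of the other 99, 14 were lower and 6 higher. Among all tested loci of the same regions 15.3% were called lower, beside 9.02% in the rest of the arms. Called higher were 5.30% and 8.56% of all tested loci, against 0% and 6.06% of the members, so nothing is read from the higher counts. On chromosome 4 the call was lower for 3 of 4 members (CR43957, CR44029 and CR44030) and for 26.7% of its 75 tested loci. CR44029 was called in 5 and CR44030 in 3 of the 8 fits that left out 1 group, and without the Sin3A knockdown only CR43957 of the 3 was called. On the scaffolds it was lower for 2 of 3 members and for 41.3% of 46 loci, and near the centromeres for 7 of 16 members and 10.1% of 388 loci. The 2 are the ribosomal RNA pseudogenes CR40677 and CR41602, whose levels are uncertain. The 7 were CR43148, CR43242 and CR43765 on 2L and CR43256, CR43790, CR43791 and CR44101 on 2R. Of these, CR43765 is a member through its high groups, and CR43790 and CR43791 are now 1 gene. The 2 Mb limit was set after these positions were seen, so the counts describe the members and were not tested.

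The calls were also counted by annotation class, with no test of a difference between classes. Of the 61 long noncoding RNAs 18 were called lower and 3 higher (29.5% and 4.92%), and of the 55 antisense RNAs 6 and 3 (10.9% and 5.45%), the latter near the 9.43% and 8.35% of all tested loci. Of the 55 members that share no exonic base with another gene, 18 were lower and 3 higher, while of the 40 that share over 50%, 1 was lower (CR43964, antisense to CG15093) and 3 were higher (CR43730, CR43877 and CR31912).

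Each of those 3 higher members lies across from a coding gene that also had a higher level, and antisense members resembled their partners more widely. For 69 of the 79 members with a coding gene on the opposite strand that gene was tested too. Pairs were split by the percentage of the member's exonic bases shared with any annotated gene, which can include genes other than the partner. Over the 35 pairs above 50%, Pearson's r between the Sin3A dsRNA effects of member and partner was 0.86 (Spearman's rho 0.86). Over the 34 pairs at 50% or less it was 0.53 (rho 0.52). For paraquat the values were 0.35 and 0.02. The points share the same libraries and, where exons overlap, reads that the libraries, with no strand step described, do not separate, and the correlation is across loci, not samples. Of the 14 called members with a tested partner, 3 had a partner called in the same direction and 0 in the opposite one.

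**Figure D3:**
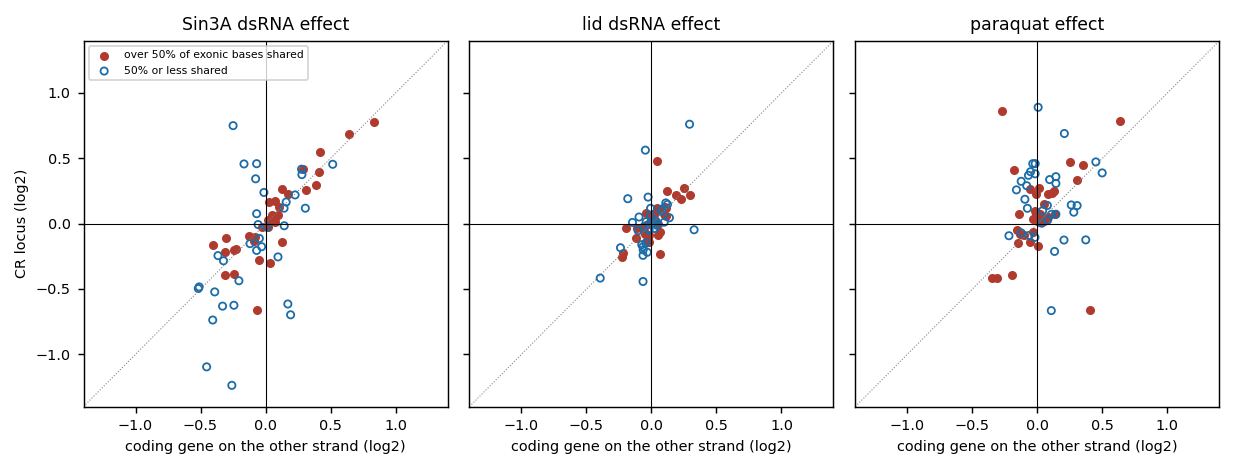
Effect on each CR locus against the effect on the coding gene that overlaps it on the other strand (both log2), for Sin3A dsRNA, lid dsRNA and paraquat, in 69 pairs. Filled circles are CR loci that share over 50% of their exonic bases with any annotated gene, not the plotted gene alone. They lie close to the dotted line of equal effects for Sin3A dsRNA (r = 0.86 over 35 pairs). Open circles, which share 50% or less, scatter more widely (r = 0.53 over 34).

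One member lies inside a target of the RNAi. CR30055 is on the opposite strand within the Sin3A gene, without sharing an exonic base, and was at 20.4, 13.7, 14.5 and 13.1 FPKM without paraquat and 22.5, 19.9, 20.5 and 20.8 FPKM with it. Its effect of Sin3A dsRNA was -0.15 (SE 0.10, limma adjusted p = 0.255), and the groups overlapped. It was singled out for its position, not by its values.

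With lid dsRNA no CR locus met the call rule. By limma 0 of 122 members were called, beside 0.439% of all tested loci called higher and 0.490% lower, and 23 members had an unadjusted p under 0.05 (18.9%, against 23.7% of all tested loci). An adjusted p under 0.05 with a change below 1.4-fold was reached by 3 members. The median effect was 0.00 over the members and 0.01 over all tested loci. Of the largest rises with all 4 pairs in 1 direction, CR43635, beside corto (a chromatin protein), was at 0.621, 1.13, 0.983 and 1.23 FPKM without paraquat and 0.927, 1.41, 0.813 and 1.57 FPKM with it. Its effect was 0.62 (SE 0.20, limma adjusted p = 0.124), at levels near the limit of membership. CR43474, antisense to loco (a regulator of G protein signalling), had an effect of 0.48 (SE 0.08, limma adjusted p = 0.0336), just short of 1.4-fold, CR43730 one of 0.27 (SE 0.05, limma adjusted p = 0.0359), and CR44065 one of 0.25 (SE 0.09, limma adjusted p = 0.149). Of the largest falls, CR44127 was at 4.44, 0.933, 3.33 and 2.03 FPKM without paraquat and 1.89, 1.08, 2.72 and 2.23 FPKM with it, with an effect of -0.96 (SE 0.30, limma adjusted p = 0.124). CR43148 had an effect of -0.51 (SE 0.11, limma adjusted p = 0.0592), CR44221, in the region of kis (a chromatin remodeller), one of -0.44 (SE 0.14, limma adjusted p = 0.134), and CR43989 one of -0.44 (SE 0.12, limma adjusted p = 0.0846).

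Paraquat raised more CR loci than it lowered. Of the 122 members, 12 were called higher and 3 lower, beside 3.94% of all tested loci called higher and 3.33% lower. As shares of the members these are 9.84% and 2.46%, with CR43651, whose call supports nothing, among the 12. The median effect was 0.15 over the members and -0.01 over all tested loci, and 44 members (36.1%) were higher in all 4 disjoint pairs while 14 (11.5%) were lower in all 4, beside 23.8% and 30.9% of all tested loci. At an unadjusted p under 0.05 were 52 members (42.6%), against 48.6% of all tested loci. With at least 1 FPKM required in each group, 10 members were called higher and 2 lower, and after centring on the median 19 and 2. Between 1 and 10 FPKM 12.9% of the members and 9.86% of all tested loci were called higher, and between 10 and 100 FPKM 6.82% and 2.14%. Fits to the 4 groups without or the 4 with Sin3A dsRNA alone leave 1 residual degree of freedom. They called 0 members, but also only 7 and 0 of all tested loci, so the 0 shows little. In them 33 and 37 members had an unadjusted p under 0.05. A pseudocount of 1 FPKM called 9 members.

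The largest rise was that of CR44138, a long noncoding RNA on 3R from 9198352 to 9207531 (dm3), in the region of CG9813. It was at 10.7, 13.2, 12.9 and 13.2 FPKM without paraquat and 20.8, 26.4, 30.3 and 33.8 FPKM with it. Every group with paraquat was above every group without, and the level was 2.20-fold higher, an effect of 1.14 (SE 0.08, limma adjusted p = 6.05e-04). CG9813 was below a mean of 1 FPKM and not tested. CR43973, also raised with Sin3A dsRNA, rose with paraquat by 0.89 (SE 0.09, limma adjusted p = 0.00141). The levels given for it show its highest values in the groups with both. CR44107 is antisense to CG5835 over 94.2% of its exonic bases and was at 13.8, 12.9, 9.94 and 14.3 FPKM without paraquat and 21.4, 23.1, 18.9 and 24.0 FPKM with it. Its effect was 0.78 (SE 0.10, limma adjusted p = 0.00295), beside 0.64 (SE 0.08, adjusted p = 0.00292) for CG5835, which was also called.

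CR42861, next to Pdcd4 (an inhibitor of translation initiation), was at 15.5, 14.9, 9.96 and 9.69 FPKM without paraquat and 21.8, 23.0, 16.4 and 17.9 FPKM with it. It rose with paraquat, with an effect of 0.68 (SE 0.06, limma adjusted p = 0.00122), and fell with Sin3A dsRNA, with one of -0.50 (SE 0.06, limma adjusted p = 0.00112), while Pdcd4 changed by -0.22 (SE 0.04, adjusted p = 0.00871) with paraquat. CR43785, near hng3, had an effect of 0.62 (SE 0.09, limma adjusted p = 0.00432), and hng3 one of 0.57 (SE 0.11, adjusted p = 0.0114), called in the same direction. The pseudogene CR43727, near Smn (a factor of small nuclear ribonucleoprotein assembly), was at 4.56, 4.37, 4.22 and 3.97 FPKM without paraquat and 7.15, 7.49, 6.12 and 5.89 FPKM with it. Stressed and unstressed groups did not overlap, with an effect of 0.62 (SE 0.07, limma adjusted p = 0.00161), while Smn stood at -0.05 (SE 0.08, adjusted p = 0.677).

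CR32207 is a long hairpin RNA, a class from which Dicer cuts endogenous small interfering RNAs. It was at 2.98, 3.11, 2.97 and 3.13 FPKM without paraquat and 4.63, 4.63, 4.23 and 4.40 FPKM with it. The 4 unstressed values lay between 2.97 and 3.13 FPKM and the 4 stressed ones between 4.23 and 4.63 FPKM, with an effect of 0.54 (SE 0.07, limma adjusted p = 0.00292). The other members called higher were at low levels: CR43651 at a mean of 1.05 FPKM (0.83, SE 0.17), CR43257 at 1.44 (0.86, SE 0.22), CR44046 at 1.58 (0.55, SE 0.13), CR44101 at 2.74 (0.49, SE 0.10) and CR43864 at 5.12 (0.58, SE 0.12). CR43651 averaged 0.729 FPKM without paraquat, so it is a member through its high groups and its call supports nothing. CR43257 lies across from ETH, a neuropeptide gene joined in the tables to Orc4 (a subunit of the origin recognition complex). It was called in 2 of the 8 fits that left out 1 group, CR44101 in 4 and CR43864 in 5.

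Of the 3 members called lower, CR43708 is now annotated as the small nuclear RNA snRNA:LU and was at 16.1, 7.95, 23.4 and 11.5 FPKM without paraquat and 6.57, 9.03, 7.48 and 6.49 FPKM with it. It fell in 3 of the 4 pairs and differed by 0.18 between the lid knockdowns, with an effect of -0.89 (SE 0.28, limma adjusted p = 0.0478), and was called in 2 of the 8 fits that left out 1 group. Its RNA class is not polyadenylated, whereas the libraries were made from purified mRNA. CR43855, within the region of Sema1a (an axon guidance protein), was at 35.8, 21.4, 16.6 and 12.8 FPKM without paraquat and 16.6, 12.1, 11.7 and 10.9 FPKM with it. The unstressed control was its highest group, and the effects of -0.67 (SE 0.15, limma adjusted p = 0.0167) for paraquat and -0.62 (SE 0.15, limma adjusted p = 0.0133) for Sin3A dsRNA were both called. The paraquat call was kept in 5 and the Sin3A dsRNA call in 6 of the 8 fits that left out 1 group, the latter being lost without GFP RNAi or without the stressed Sin3A knockdown. CR42871, antisense to CG6661, had -0.66 (SE 0.15, limma adjusted p = 0.0179), with no overlap between stressed and unstressed groups. CR44067, antisense to egg (a histone methyltransferase), and CR44106, antisense to CG31191, were lower in all 4 pairs without reaching 1.4-fold, at -0.42 (SE 0.07, limma adjusted p = 0.00653) and -0.42 (SE 0.06, limma adjusted p = 0.00444).

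In all, 43 members were called for at least 1 factor, 4 of them (CR42861, CR43855, CR43973 and CR44101) for both Sin3A dsRNA and paraquat, and 79 for none. In CR43973 both effects were upward and in CR43855 both downward, and in CR42861 and CR44101 they were opposite.

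**Figure D4:**
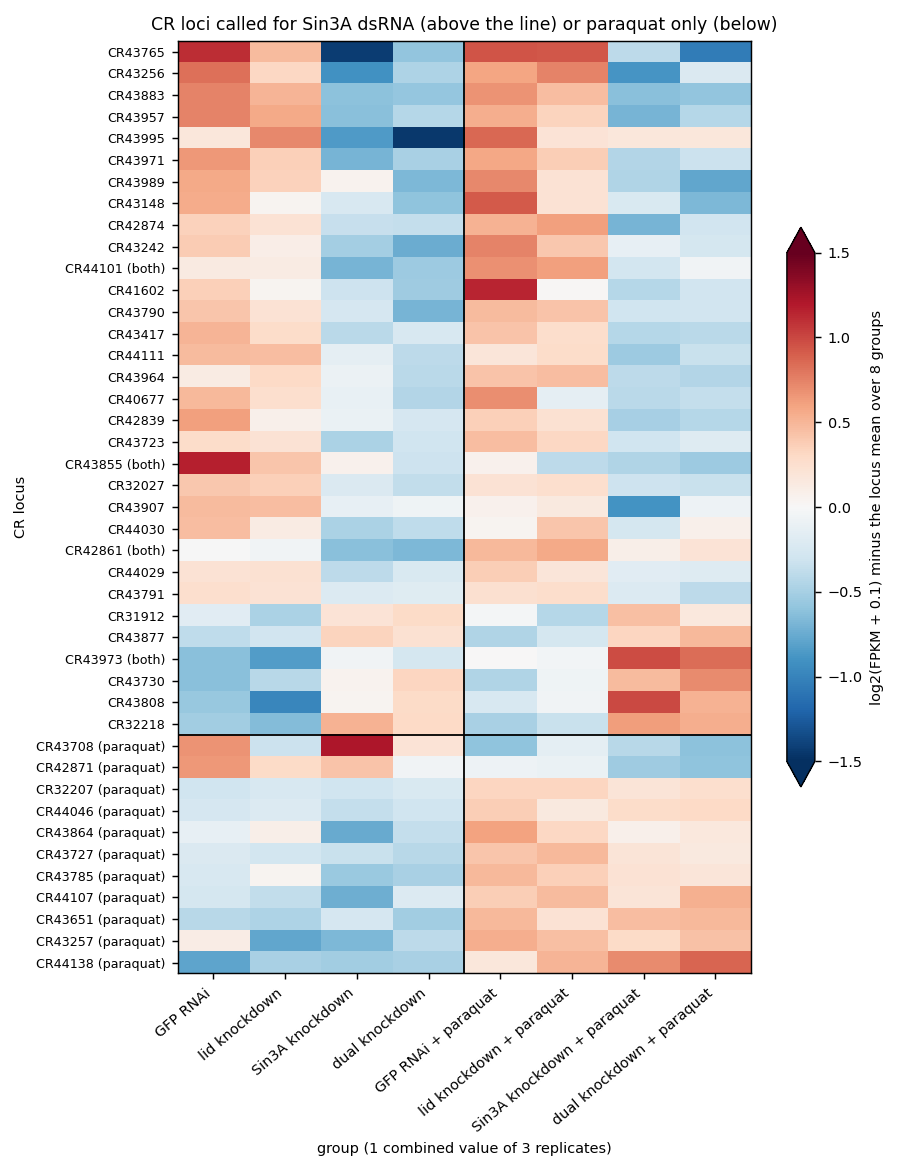
Level of the 43 called CR loci in the 8 groups, as log2(FPKM + 0.1) minus the mean of the locus, each square 1 combined value of 3 replicates; loci called for Sin3A dsRNA are above the horizontal line, those called for paraquat alone below it, and paraquat groups stand right of the vertical line. Each of the 26 lowered loci is lower with Sin3A dsRNA than in the paired group without it, but not always below its own mean. CR42861 and CR43995 lie above their means in the stressed Sin3A and dual knockdowns. CR41602 and CR43855 each have 1 group of GFP RNAi far above the rest.

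Whether an effect differed with another factor was tested by adding the 3 two-way interactions, which left 1 residual degree of freedom. Limma called 0 members for Sin3A dsRNA by lid dsRNA and 0 for Sin3A dsRNA by paraquat, where 0.0258% and 0.0258% of all tested loci passed an adjusted p of 0.05; at an unadjusted p under 0.05 there were 28 and 20 members (23.0% and 16.4%, against 22.4% and 18.4% of all tested loci). For lid dsRNA by paraquat 6 members passed (4.92%), which is near the 3.91% of all tested loci. At an unadjusted p under 0.05 there were 29 (23.8%), fewer than the 35.8% of all tested loci, so nothing is read from the count, and the 6 are described singly. These calls depend on the variance model: without an intensity trend, or with this interaction as the sole one in the fit, 0 of 122 passed, with 33 and 16 at an unadjusted p under 0.05. Of all tested loci only 6 and 3 passed there, against 303 in the main fit, so the loss was not particular to the members.

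CR44108 had the largest interaction. It lies on X across from Shmt, serine hydroxymethyltransferase of one-carbon metabolism, and was at 1.39, 7.71, 0.853 and 5.14 FPKM without paraquat and 5.75, 2.74, 6.24 and 3.63 FPKM with it. The log2 difference with minus without lid dsRNA was 2.43 in unstressed cells and -0.90 under paraquat. The interaction was -3.33 (SE 0.13, limma adjusted p = 0.0233). Shmt was at 57.8, 83.9, 51.9 and 92.9 FPKM without paraquat and 89.5, 75.0, 77.3 and 80.2 FPKM with it, with an interaction of -0.79 (SE 0.03, adjusted p = 0.0233), and 49.3% of the exonic bases of CR44108 are shared. The locus was lowest in the groups with neither lid dsRNA nor paraquat, and so was Shmt.

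CR43628, known as ASTR and antisense to Rga (a subunit of the CCR4-NOT deadenylase), was at 10.9, 14.0, 10.7 and 17.0 FPKM without paraquat and 17.6, 12.6, 17.5 and 15.1 FPKM with it, with an interaction of -0.86 (SE 0.05, limma adjusted p = 0.0281). That of Rga was 0.14 (adjusted p = 0.144), of the other sign. CR44115 had -0.69 and CR44065 -0.36 (adjusted p = 0.0373 and 0.0485). The abundant X loci CR40469 and CR34335 had interactions of 0.48 and 0.41 (limma adjusted p = 0.0323 and 0.0323). Both were lower with lid dsRNA without paraquat and higher with lid dsRNA in its presence.

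**Figure D5:**
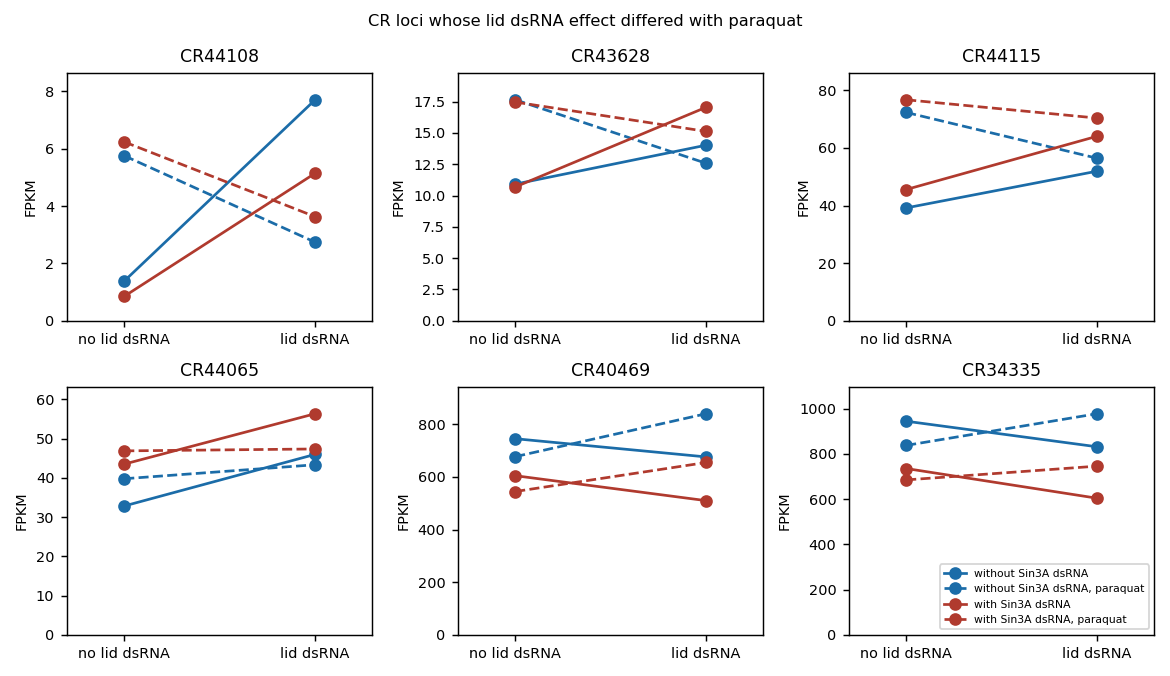
FPKM of the 6 CR loci called for the interaction of lid dsRNA and paraquat, without and with lid dsRNA, in blue without and in red with Sin3A dsRNA, as solid lines without and dashed lines with paraquat. In CR44108, CR43628 and CR44115 the solid lines rise and the dashed lines fall, in CR44065 the solid lines rise more steeply, and in CR40469 and CR34335 the solid lines fall and the dashed lines rise.

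Single pairs of groups have 1 value on each side and no test, so loci past 2-fold were counted. Percentages are of the members and then of all tested loci, past 2-fold in either direction. Against GFP RNAi there were 10 members in the Sin3A knockdown (8.20% beside 5.92%), of which 8 were lower. With lid dsRNA alone there were 3 (2.46% beside 2.25%), and with both dsRNAs 15 (12.3% beside 7.23%), of which 13 were lower. With paraquat there were 4 in GFP RNAi (3.28% beside 2.58%) and 20 in the Sin3A knockdown (16.4% beside 9.53%), of which 13 were lower. With paraquat and lid dsRNA alone there were 6 (4.92% beside 3.64%), and with paraquat and both dsRNAs 19 (15.6% beside 10.9%), of which 11 were lower. These comparisons share the unstressed control. Stressed against unstressed cells of the same dsRNA, 8 members passed in the Sin3A knockdown (6.56% beside 3.74%), of which 7 were higher. With lid dsRNA alone 2 passed (1.64% beside 2.23%), and with both 4 (3.28% beside 2.84%), all of them higher. The median log2 difference of the members in these 3 comparisons was 0.17 in each.

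Other noncoding RNA genes with names of their own were counted beside the members. Of 533 such names, 253 loci had a mean of at least 1 FPKM, mostly small nucleolar RNAs. With Sin3A dsRNA 9 were called higher and 17 lower, with lid dsRNA 0 and 1, and with paraquat 14 and 3. Of all tested loci, 8.35% were called higher and 9.43% lower with Sin3A dsRNA, 0.439% and 0.490% with lid dsRNA, and 3.94% and 3.33% with paraquat. As shares of the 253, both Sin3A dsRNA counts lie below these. The paraquat count lies above for higher and below for lower. No difference from these shares was tested. The median paraquat effect was 0.54 over the 253, 0.15 over the members and -0.01 over all tested loci. An upward shift with paraquat was therefore not particular to the members. With Sin3A dsRNA the medians were -0.07, -0.12 and -0.01. The dosage compensation RNA roX2 was lower with Sin3A dsRNA (-0.51, SE 0.07) and higher with paraquat (0.55, SE 0.07). The snoRNA host genes Uhg1, Uhg4 and Uhg8 rose with paraquat, by 0.61, 0.60 and 1.03, and snRNA:7SK, an inhibitor of transcription elongation, by 1.03. The libraries were made from purified mRNA, which limits what the levels of snRNA:7SK and of the small nucleolar RNAs show. Of 11 found genes of the RNA exosome and its cofactors, which degrade noncoding RNA, Rrp4 and Rrp40 rose with Sin3A dsRNA, by 0.65 and 0.60, and 0 were called for lid dsRNA or paraquat. Of 13 found genes of Integrator, which cleaves nascent noncoding RNAs, asun rose (0.64) and IntS6 fell (-0.54) with Sin3A dsRNA. The rest of both lists were called for none of the 3 factors, as counts beside backgrounds of 8.35% higher and 9.43% lower for Sin3A dsRNA.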

How the data were processed

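RNA of 24 S2 cell libraries (8 groups of 3 replicates) was sequenced by the authors as paired reads from purified mRNA, and aligned to dm3 with TopHat and Bowtie. With Cufflinks and Cuffdiff the authors computed FPKM values, 1 for each group and locus over its replicates, and deposited them in 7 tables against GFP RNAi. The tables give FPKM and no read numbers, so the measure of precision used here is the spread among groups. The authors' fold changes, test statistics, p-values and q-values were left out.

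Members were matched by name (a single CR number) and a mean of at least 1 FPKM over the 8 groups. The members and gene lists were chosen with earlier results of these data known. Log2(FPKM + 0.1) values of 7748 loci were fitted with limma 3.58.1 in R 4.3.3 by 3 main effects (empirical Bayes with an intensity trend, 4 residual degrees of freedom) and Benjamini-Hochberg adjustment over all loci. Calls required an adjusted p under 0.05 and a change over 1.4-fold. Interactions were tested in a second fit. The computation was checked on simulated data with known changes. p-values therefore measure departures from additive effects among combined values, not the spread between cultures.

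Named members are the 10 highest, those called for an effect (the 12 largest where a direction had more), the 4 largest rises and falls per factor with all 4 pairs in 1 direction, those next to the threshold, and their neighbouring genes. Positions are those of the deposited loci on dm3 with the start counted from 1, and a locus range can include overlapping genes. An annotation of dm6 (Ensembl BDGP6.54) gave biotypes, exon sharing and neighbours by name only. Alternatives changed the pseudocount, filter, centring, trend, thresholds and groups. Python 3.11.15 and pandas 2.3.3 were used for the joins.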

Additional observations from a re-analysis of the deposited data

Results flagged for a closer look

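The effect of lid dsRNA differed between unstressed and paraquat-treated cells in 6 CR loci, by a limma test of the interaction with 1 residual degree of freedom. These are 4.92% of the members, near the 3.91% of all tested loci that passed, and at an unadjusted p under 0.05 the members lay below all loci (23.8% against 35.8%). The difference (the log2 effect with paraquat minus that without) was -3.33 in CR44108, -0.86 in CR43628, -0.69 in CR44115 and -0.36 in CR44065, where lid dsRNA raised the level more, or lowered it less, without paraquat. It was 0.48 in CR40469 and 0.41 in CR34335, with the opposite order. In each locus both pairs of groups, without and with Sin3A dsRNA, showed the direction of the interaction. In CR44108 the level went from 1.39 to 7.71 FPKM with lid dsRNA in unstressed cells and from 5.75 to 2.74 FPKM under paraquat, and with Sin3A dsRNA present from 0.853 to 5.14 and from 6.24 to 3.63 FPKM. Without an intensity trend in the variance 0 of the 6 passed (33 of 122 members at an unadjusted p under 0.05). Only 6 of all tested loci passed in that fit.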

How the results depend on the processing

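No paired analysis was possible because the deposited tables hold 1 combined value per group and no values of single replicates, so a replicate block could not be fitted. For Sin3A dsRNA the count of 32 called CR loci ran from 28 to 33 when 1 group was left out, and 23 of the 32 were called in all 8 such fits. It moved to 4 at a fold over 2 (all lower) and to 17 in the 4 groups without paraquat alone, of which 15 were among the 32. For lid dsRNA the count of 0 stayed 0 in each fit that left out 1 group. Those fits called only 3 to 32 of all tested loci, so few or no members could be called and the 0 shows little. The count was 1 with at least 1 FPKM in each group, 1 after centring on the median, 1 without an intensity trend and 3 with the 3 interactions. For paraquat the 15 ran from 11 to 20 when 1 group was left out, and 9 of the 15 were called in all 8 such fits. They became 9 with a pseudocount of 1 FPKM, 7 at an adjusted p under 0.01 and 1 at a fold over 2. In either set of 4 groups (without or with Sin3A dsRNA), where 1 residual degree of freedom was left, they became 0. Those 2 fits called only 7 and 0 of all tested loci, so this 0 shows little. The 6 interactions of lid dsRNA and paraquat, under alternatives chosen after seeing the data, became 0 without a trend and 0 with that interaction alone. In these fits only 6 and 3 of all tested loci passed. None of the 59 main effects of named members, nor of the 6 interactions, changed sign under the alternatives run for it. The lid dsRNA effects of the interaction loci other than CR44065 were not among the 59, and that of CR44108 was 2.43 without and -0.90 with paraquat, of CR40469 -0.19 and 0.29, of CR34335 -0.23 and 0.17, of CR43628 0.51 and -0.35, and of CR44115 0.45 and -0.24. The number of expressed CR loci was 156 at a minimum mean of 0.5 FPKM and 105 at 2 FPKM. The cause of these moves was not tested, except that fewer groups leave fewer degrees of freedom. The median level of a group differed from that of GFP RNAi by at most 0.05 on the log2 scale. Low levels limit what can be shown, since 70 members lie below 10 FPKM and the tables give no number of reads behind a value.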
